A study of Homo sapiens with 7 samples.

Results

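Interferon-stimulated genes were read across 7 Hodgkin lymphoma (HL) cell lines, HDLM-2, L-540, L-428, U-HO1, SUP-HD1, L-1236 and KM-H2. The members were a list of 44 genes chosen by name. Their levels were not part of the rule, but the list was drawn up with earlier results of these data known. Probe sets annotated with a member gene alone measured 43 of the 44, out of 19775 genes in all, and LGALS3BP2 matched no annotated symbol and was not analysed here. Total RNA of each line was hybridised to 1 Affymetrix HG U133 Plus 2.0 array with 54675 probe sets. The labels name no treatment, genotype or stimulation for any line, and all 7 share the label of a Hodgkin lymphoma cell line. Each group is therefore a single line with a single array, so no spread between cultures and no p-value for a difference between lines can be given. The methods name 2 laboratories as makers of the arrays without assigning lines to them, so line and laboratory cannot be told apart.

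Interferons are secreted proteins that warn cells of viruses. They bind receptors that activate JAK kinases, which phosphorylate STAT factors, and the STAT factors carry the signal to the nucleus together with IRF9. Type I and type III interferons act mainly through an interferon-stimulated response element, and interferon gamma through a gamma-activated site. The induced genes encode proteins that bind viral RNA, block viral entry, modify proteins or degrade nucleic acids. Hodgkin/Reed-Sternberg cells, the tumour cells of HL, are known for active JAK-STAT signalling, and lines grown from them are models of a single tumour each.

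Values are log2 levels per probe set, so a difference of 1 is a 2-fold change. As background of an array, the level under which 95% of 107 probe sets for olfactory receptors fell was taken, since these genes are silent in lymphoid cells. It ranged over 4.49 to 4.86 in 6 lines and was 5.59 in L-1236. Genes above background numbered 8609 in L-1236 and 10554 to 11636 in the other lines. The array of U-HO1 also stood apart, with an 18S probe level of 11.12 against 5.23 to 7.06, and an ACTB signal 2.11 higher at the 3' than at the 5' end against 0.06 to 0.54. The Hodgkin markers IRF4, FUT4, CCL17 and FSCN1 were above background in all 7 lines. TNFRSF8 (CD30) was above it in 6 and lay at 4.36 in SUP-HD1, just under that array's 4.49, TRAF1 in 6 with 4.97 in L-1236, and CCL22 in 5. Of 5 measured B-cell markers and 5 measured myeloid markers, none was above background in all lines, and MS4A1, CD79B, LYZ, S100A8 and S100A9 were above it in no line, whereas PAX5 was above it in 6 lines, CD22 in 5, CSF1R in 4, CD79A in 3 and CD14 in 1. Of the 6 measured T- and NK-cell markers, none was above background in all lines. NKG7 was 11.22 in L-540 and 5.52 in HDLM-2, CD2 was 8.95 in HDLM-2 and 7.28 in L-540, and CD3D was 8.89 in KM-H2. CD3D was 4.65 in L-540 and 4.36 in HDLM-2. CD3E passed background in L-540 alone, at 4.71, CD3G in KM-H2 alone, at 4.91, and GNLY in no line. The part of these features in the results below was not tested. Probe sets that share a gene differed with a pooled SD of 0.44 over 1010 genes, which is given as a stand-in for technical error and can also hold differences between transcripts.

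The promoters of members were inspected for both elements, because all genes of several families were called in the same line. RefSeq promoter windows on GRCh38.p14, each covering 250 bases before and 50 after a transcription start, were found for 33 of the 44 members by symbol. The response element was searched on both strands as GAAANNGAAA, which reads TTTCNNTTTC on the opposite strand, and it was present for 25 of the 33 members (75.8%), compared with 4.38% of 27305 genes. Members without it were OAS1, IFI16, HERC6, CMPK2, SAMD9L, XAF1, SP110 and IFI35. The gamma-activated site, searched as TTCNNNGAA, which is its own reverse complement, was found for 10 of 33 members (30.3%), against 9.38% of genes, and it may overlap the other motif. These are matches of letters and not mapped binding sites.

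Stretches upstream of the start are shown for 9 members. ISG15 stands for the members above background in every line, the IFIT and IFITM genes for families raised as a whole in U-HO1 or L-540, HERC5 and SAMD9 for genes high in HDLM-2, L-540 and U-HO1, and PARP14 for a gene highest in SUP-HD1. Capitals mark the response element, and each sequence runs 5' to 3' on the strand of its gene. The first base of the marked motif nearest the start lies between 19 and 136 bases before it. IFIT1, IFITM3 and ISG15 have 2 motifs in the stretch, which overlap in ISG15.
ISG15 (chr1:1013365-1013424, plus strand): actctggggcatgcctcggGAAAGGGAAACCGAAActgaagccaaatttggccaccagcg
IFIT1 (chr10:89392495-89392554, plus strand): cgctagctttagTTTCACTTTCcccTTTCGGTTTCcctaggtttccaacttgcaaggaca
IFIT3 (chr10:89332453-89332512, plus strand): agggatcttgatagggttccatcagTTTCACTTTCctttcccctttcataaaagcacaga
IFIT5 (chr10:89414524-89414567, plus strand): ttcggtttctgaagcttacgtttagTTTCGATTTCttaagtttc
IFITM1 (chr11:313975-314034, plus strand): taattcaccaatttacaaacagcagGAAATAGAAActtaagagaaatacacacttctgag
IFITM3 (chr11:320861-320920, minus strand): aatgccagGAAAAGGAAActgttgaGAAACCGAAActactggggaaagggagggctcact
HERC5 (chr4:88457020-88457079, plus strand): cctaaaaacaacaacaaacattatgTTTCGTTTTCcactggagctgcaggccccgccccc
SAMD9 (chr7:93118081-93118140, minus strand): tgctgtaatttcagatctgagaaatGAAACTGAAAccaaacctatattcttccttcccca
PARP14 (chr3:122680785-122680838, plus strand): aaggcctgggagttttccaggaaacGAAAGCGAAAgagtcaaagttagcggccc

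**Figure D1:**
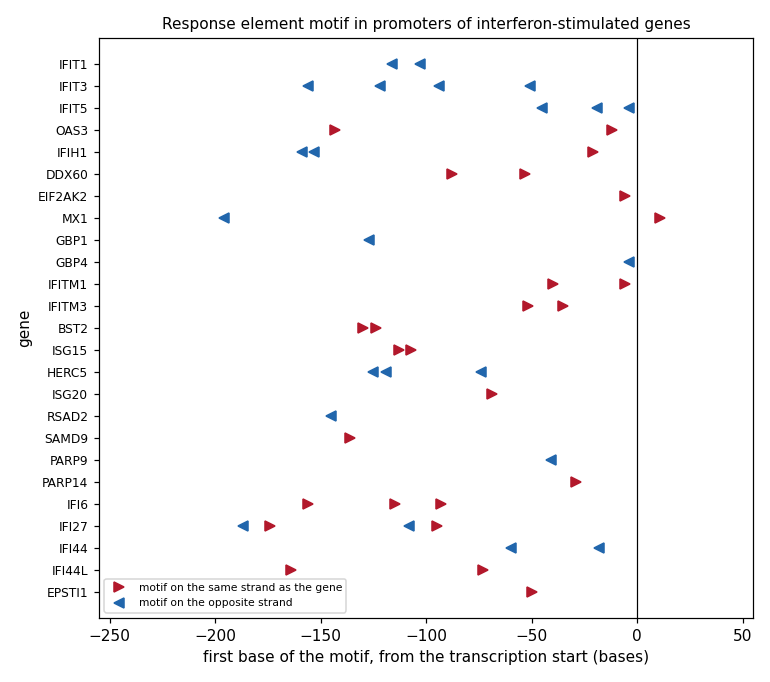
Position of each response element motif in the promoter windows of the 25 members that have it, in bases from the transcription start, with triangles pointing right for motifs on the strand of the gene and left for the opposite strand, and with all windows of a gene drawn in its row. Most motifs lie upstream of the start, and IFIT3 and IFI27 have the most marks. Those of IFI27 have the same strands and spacing in each of its windows and may be the same sites drawn again.

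The interferon-stimulated genes varied widely between the lines. Of the 43 measured members, 31 (72.1%) had a range of at least 3 over the 7 lines, an 8-fold difference, compared with 16.5% of all genes and 21.2% of the 11036 genes with a mean level above background. The median range was 4.32 for members, 1.68 for all genes and 1.96 for those 11036 genes, a class that 33 members belong to. The 10 members above background in every line were OAS1, IFIH1, GBP2, IFITM2, BST2, ISG15, ISG20, PARP14, SP110 and EPSTI1, while 32 passed it in some lines and 1, RSAD2, in none. In RNA from a whole culture, fewer cells with a transcript and less of it per cell cannot be told apart.

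A member was called higher in a line where it was above background and at least 1 above the median of the other 6 lines, and lower where it was at least 1 below that median. HDLM-2 held the most raised members, 22 of 43 (51.2%), against 8.83% of all genes and 12.3% of genes with a mean level above background. It had 5 lower members (11.6%, against 5.0% and 8.16% of those gene classes), namely MX2, IFITM2, IFITM3, ISG20 and TRIM22. The median member of HDLM-2 lay 1.06 above the other lines, while the median of all genes was -0.02. Without KM-H2, L-1236 or SUP-HD1 among the other lines, the median member of HDLM-2 was 0.60, 0.64 or 0.68. The 22 raised members covered most roles, with OAS2, OAS3 and OASL, MX1, GBP1, GBP2 and GBP4, HERC5, HERC6 and USP18, and IFI44 and IFI44L among them. With a difference of 2 in place of 1, HDLM-2 had 10 raised members, again the highest count of the 7 lines. The share over all genes was not taken at that difference. The 5 lower members became 3 without L-540 and 2 without U-HO1 among the other lines.

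L-540, U-HO1 and L-428 followed, each with a different choice of members. L-540 had 17 higher members (39.5%, against 7.62% of all genes and 10.5% of the genes with a mean above background) and 8 lower (18.6%, against 5.6% and 9.51%). Its raised members included IFITM1, IFITM2 and IFITM3, and its lower ones IFIT2, IFIT3 and IFIT5 as well as MX1 and MX2. Without probe sets that can match several transcripts, which are those of the IFITM genes among others, the count of higher members in L-540 was 10. That setting leaves no probe set for DDX60, IFI16, IFITM1, IFITM2, IFITM3, TRIM22 and IFI35. These raised members therefore drop out of it and are not read at another probe set. The median member was 0.49 above the other lines in L-540, compared with 0.04 for all genes, and it was 0.31 without KM-H2 and 0.79 without HDLM-2 among the other lines.

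U-HO1 showed nearly the reverse at the IFIT genes. It had 17 higher members (39.5%, against 11.0% and 14.6%), among them IFIT1, IFIT2, IFIT3, IFIT5, MX1, MX2 and ISG15. Its 5 lower members (11.6%, against 7.13% and 12.2%) were OAS3, IFI16, GBP1, GBP2 and LY6E, and the median member was 0.33 above the other lines, against -0.04 for all genes. This median turned to -0.09 without L-1236 and was 0.52 without L-540 and 0.49 without L-428. These lower members became 10 without KM-H2, 9 without L-1236 and 9 without SUP-HD1, so that count rests on which lines U-HO1 is set against, and its share is at that of other genes.

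L-428 had 16 higher members (37.2%, against 7.25% and 9.6%), with a median member at 0.56 and a median gene at 0.03. That median was 0.20 without KM-H2, 0.27 without SUP-HD1, 0.36 without L-1236, 0.88 without L-540 and 0.97 without U-HO1. MX1, MX2, GBP1, GBP4 and GBP5 were among these. The 3 lower members (6.98%, against 5.04% and 8.49%) were IFITM1, TRIM22 and EPSTI1, a share near that of other genes, and they became 8 without KM-H2, 7 without L-1236 and 5 without SUP-HD1.

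SUP-HD1, L-1236 and KM-H2 had more lower than higher members. In SUP-HD1, 17 members (39.5%, against 5.61% and 9.4%) were lower and 8 (18.6%, against 8.41% and 11.7%) higher, and the median member lay at -0.97, compared with 0.03 for all genes. This median was -0.64 without HDLM-2, -0.56 without L-428, and -0.60 without L-1236, L-540 or U-HO1. KM-H2 had 16 lower members (37.2%, against 6.42% and 10.6%) and 2 higher (4.65%, against 9.21% and 11.8%), TRIM22 and IFITM2, with a median of -0.57 against -0.06, and of -0.93 without L-1236. Without L-1236 and U-HO1 among the other lines together, a setting added after the values were seen, the higher members of SUP-HD1 numbered 5.

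L-1236 had 18 lower members (41.9%), but 18.2% of all genes and 31.7% of genes with a mean above background were also lower on this array, whose background level was the highest. Its 4 higher members (9.3%, against 7.13% and 8.22%) were MX1, GBP5, IFI27 and IFI44L, and its median member was -0.67, against -0.02 for all genes and -0.51 for the genes with a mean above background. Without HDLM-2 it was -0.42. Among these 3 lines, the share of lower members in L-1236 stood nearest to that of other genes, and its share of higher members was at theirs. The 4 higher members were 1 when members with a low mean were left out and 7 when the arrays were quantile-normalised again.

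**Figure D2:**
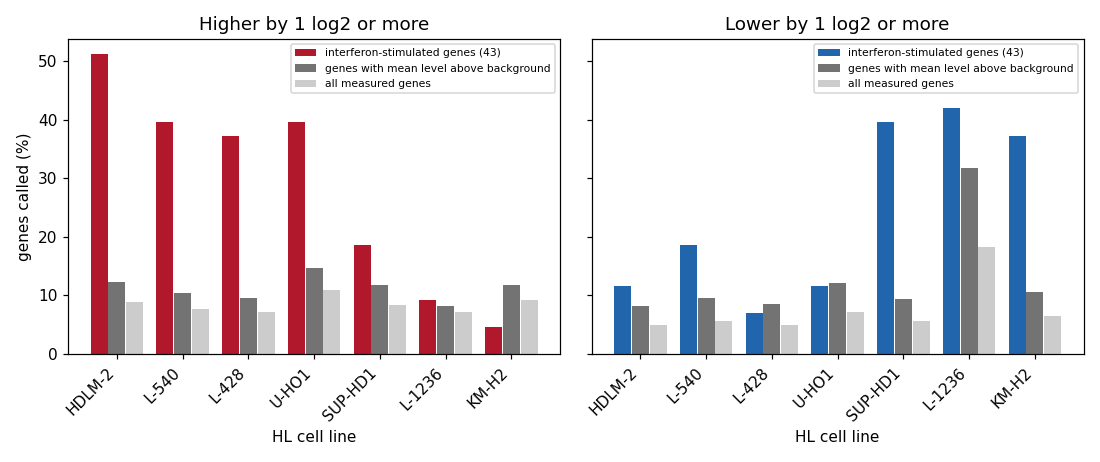
Percent of genes called at least 1 log2 higher (left) or lower (right) in each HL cell line than the median of the other 6 lines, for the 43 interferon-stimulated genes, genes with a mean level above background and all measured genes. The bars of the members reach 51.2% in HDLM-2 on the left and 41.9% in L-1236 on the right, where the bars of other genes also are highest.

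No line was high at all members. Of the 43, 40 were called higher in at least 1 line and 30 were called higher in some lines and lower in others. The same shares were not taken over all genes, so nothing particular to the members is read from these counts. HDLM-2 had the highest level of 11 members, while 13.5% of genes with a mean above background were highest there, and KM-H2 of 1, against 14.1%. For the other lines these were 9 members in U-HO1 (18.5%), 8 in L-540 (14.5%), 6 each in L-428 (13.4%) and SUP-HD1 (15.7%) and 2 in L-1236 (11.6%). Taken as parts of 43, the counts in U-HO1, L-428 and SUP-HD1 are near the shares of those genes. KM-H2 and SUP-HD1 had the lowest level of 12 of the 43 members each, against 12.5% and 10.6% of those genes. Members are given here as counts out of 43 and other genes as percentages, so the bare numbers are not on the same scale. The counts were 9 in U-HO1 (15.1%), 7 in L-540 (9.26%), 2 each in L-428 (8.67%) and L-1236 (35.2%) and 1 in HDLM-2 (10.2%).

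**Figure D3:**
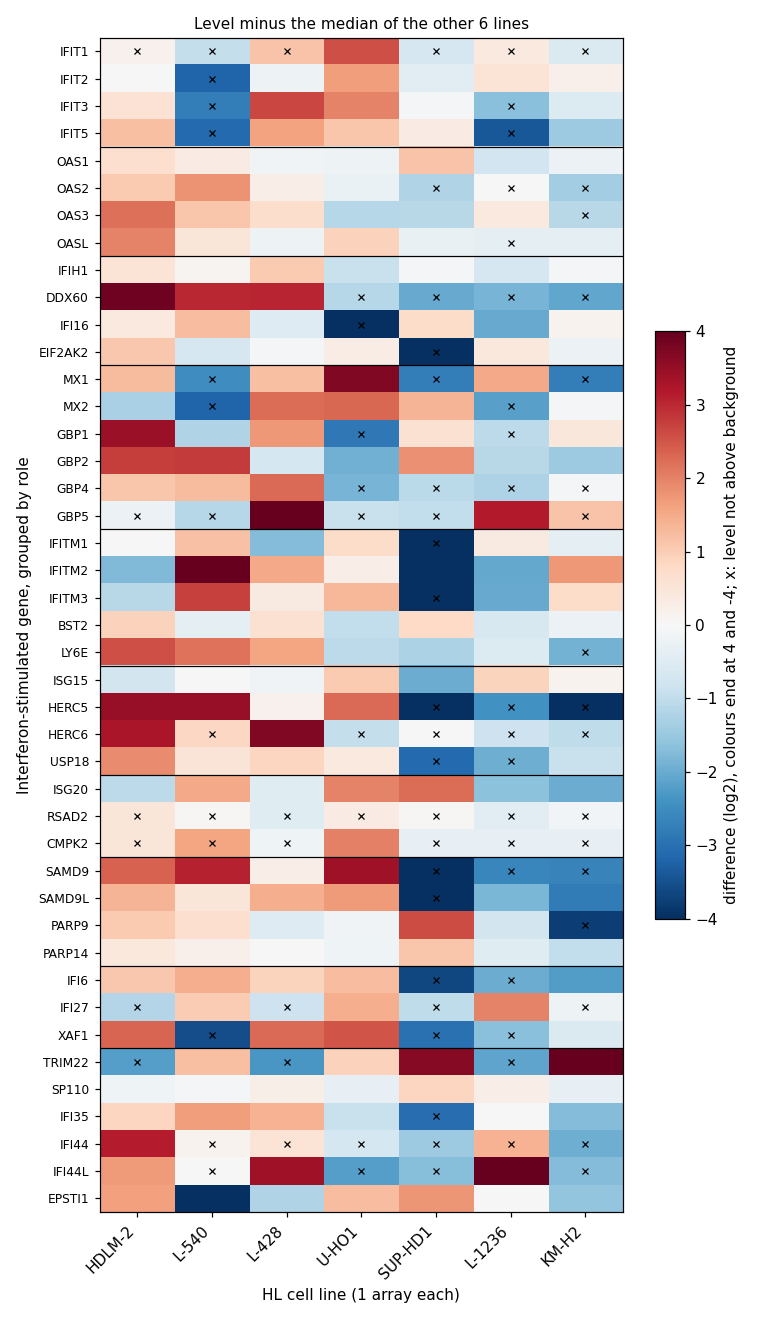
Difference in log2 level from the median of the other 6 lines for the 43 measured members (rows, grouped by role) in the 7 HL cell lines (columns, 1 array each), red for higher and blue for lower, with colours ending at 4 and -4 and a cross where the level was not above background. Blocks of colour change within a column, as at the IFIT rows (blue in L-540, red in U-HO1) and the IFITM rows (red in L-540, blue in SUP-HD1).

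The IFIT proteins bind viral RNA by its 5' end or block its translation. All 4 IFIT genes were called higher in U-HO1, and all 4 lay below the median of the other lines in L-540. IFIT1 was above background in a single line, with 6.0 in U-HO1 against 4.54 in L-428, 3.82 in L-1236, 3.66 in HDLM-2, 3.17 in KM-H2, 3.06 in SUP-HD1 and 2.80 in L-540. IFIT2 lay at 7.85 in U-HO1, against 6.71 in L-1236, 6.37 in KM-H2, 6.23 in HDLM-2, 6.11 in L-428, 5.84 in SUP-HD1 and 3.11 in L-540. IFIT3 was 8.44 in L-428 and 7.74 in U-HO1, against 6.35 in HDLM-2, 5.94 in SUP-HD1, 5.60 in KM-H2, 4.46 in L-1236 and 3.38 in L-540. L-540 had the lowest level of all 3 at these probe sets, under its background of 4.51, as L-1236 was under its own at IFIT1 and IFIT3. At a further IFIT3 probe set L-540 was also lowest but above background, at 4.71. IFIT5 had levels of 7.96 in L-428, 7.54 in HDLM-2 and 7.46 in U-HO1. These differ by about the pooled spread between probe sets, and by less than the spread of the U-HO1 array, 0.685. Then came 6.94 in SUP-HD1, 5.75 in KM-H2, 4.08 in L-540 and 3.82 in L-1236. The places of U-HO1 and L-540 at IFIT2 rest on 1 probe set, since at the other U-HO1 was lowest with 4.59 and L-540 was above background with 5.03, against 5.28 to 6.46 in the remaining lines.

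The OAS enzymes make short oligoadenylates that switch on the nuclease RNase L, and OASL is a relative without that activity. OAS1 passed background in all 7 lines, with 10.53 in SUP-HD1 as its highest and 8.78 in L-1236 as its lowest level. A second OAS1 probe set had its lowest level, 2.88, in SUP-HD1 and its highest, 6.73, in HDLM-2, so the order of the lines at OAS1 depends on the probe set. OAS2 ranged over 2.99, with 6.54 in L-540 and 5.81 in HDLM-2 as its highest levels and 3.55 in KM-H2 as its lowest. OAS3 reached 7.44 and OASL 7.40 in HDLM-2, each the highest line of the gene, while the other 6 lines held 4.71 to 6.35 of OAS3 and 5.29 to 6.34 of OASL. HDLM-2 and L-540 were above the median of the other lines at OAS1, OAS2 and OAS3.

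Sensors of foreign nucleic acid and the kinase PKR had their lowest levels in different lines. IFIH1 (MDA5), a sensor of long double-stranded RNA, was present in all lines at 7.16 to 9.05. DDX60, an RNA helicase, had 7.15 in HDLM-2, 6.31 in L-428 and 6.28 in L-540, against 3.52 in U-HO1, 3.03 in L-1236, 2.88 in SUP-HD1 and 2.83 in KM-H2. The last 4 of these lines were all below background at DDX60. IFI16, a sensor of DNA in the nucleus, was 2.58 in U-HO1, against 10.31 in L-540, 9.80 in SUP-HD1, 9.46 in HDLM-2, 9.30 in KM-H2, 8.86 in L-428 and 7.36 in L-1236. That gave U-HO1 a difference of -6.80 from the median of the other lines, and U-HO1 was lowest at all 3 probe sets of IFI16, with 2.51, 2.45 and 2.58.

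EIF2AK2 encodes PKR, which stops translation on sensing double-stranded RNA. Its level was 3.92 in SUP-HD1, against 9.08 in HDLM-2, 8.42 in L-1236, 8.31 in U-HO1, 8.05 in L-428, 7.96 in KM-H2 and 7.51 in L-540. SUP-HD1 was lowest at all 3 probe sets of EIF2AK2 and HDLM-2 highest at all 3, although at a probe set of the kind that can match several transcripts SUP-HD1 was above background, at 5.33. The gap from SUP-HD1 to the next line was 3.59.

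MX1 and MX2 are dynamin-like GTPases that trap viral particles, and GBPs are GTPases that attack the membranes around intracellular microbes. MX1 lay at 8.84 in U-HO1, against 6.66 in L-1236, 6.40 in HDLM-2, 6.37 in L-428, 3.91 in L-540, 3.63 in KM-H2 and 3.63 in SUP-HD1. MX2 was 8.54 in U-HO1 and 8.45 in L-428, against 7.58 in SUP-HD1, 6.65 in KM-H2, 5.81 in HDLM-2, 4.93 in L-1236 and 3.91 in L-540. U-HO1 was high and L-540 low at both neighbours, whereas SUP-HD1 held MX2 with MX1 below background.

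GBP1 followed another order, with 9.16 in HDLM-2 and 7.42 in L-428, against 6.30 in SUP-HD1, 6.19 in KM-H2, 5.20 in L-1236, 5.03 in L-540 and 3.38 in U-HO1. HDLM-2 was highest at all 4 probe sets of GBP1. GBP2 was 9.69 in L-540, 9.68 in HDLM-2 and 8.72 in SUP-HD1, against 7.05 in L-428, 6.76 in L-1236, 6.44 in KM-H2 and 5.96 in U-HO1. GBP4 stayed near background, at 6.22 in L-428, 5.23 in L-540 and 5.09 in HDLM-2, and under it at 4.31 in KM-H2, 3.63 in SUP-HD1, 3.46 in L-1236 and 2.83 in U-HO1. GBP5 was above background in L-428 at 7.89 and L-1236 at 6.35, against 4.31 in KM-H2, 3.39 in HDLM-2, 2.97 in U-HO1, 2.88 in SUP-HD1 and 2.72 in L-540. All 4 GBP genes lay below the median of the other lines in U-HO1, the line in which the IFIT and MX genes were called higher. GBP1 and GBP2 were called lower there, whereas GBP4 and GBP5, under background in most lines, were not.

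The IFITM proteins sit in endosomal membranes and hinder the entry of viruses. In SUP-HD1 all 3 lay at or below background, while L-540 was highest at each. IFITM1 was 11.82 in L-540, against 11.37 in U-HO1, 10.99 in L-1236, 10.78 in HDLM-2, 10.51 in KM-H2, 9.14 in L-428 and 4.01 in SUP-HD1. IFITM2 reached 12.14 in L-540, against 9.34 in KM-H2, 9.11 in L-428, 8.28 in U-HO1, 6.92 in HDLM-2, 6.64 in L-1236 and 4.51 in SUP-HD1, and IFITM3 was 11.24 in L-540, against 9.83 in U-HO1, 9.23 in KM-H2, 8.98 in L-428, 8.01 in HDLM-2, 7.08 in L-1236 and 4.10 in SUP-HD1. The differences of SUP-HD1 from the median of the other lines were thus -6.88 for IFITM1, -4.19 for IFITM2 and -5.0 for IFITM3, and its IFITM2 level was at its background of 4.49. Each of the 3 has a single probe set of a kind that can match near-identical copies, so signal may be shared between them.

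BST2 (tetherin) holds budding viruses at the cell surface, and LY6E is a lipid-anchored surface protein that restricts coronaviruses. BST2 was present in all lines within 1.58, between 8.22 in U-HO1 and 9.80 in HDLM-2. LY6E was 8.07 in HDLM-2, 7.67 in L-540 and 7.08 in L-428, against 5.65 in L-1236, 5.33 in U-HO1, 5.10 in SUP-HD1 and 4.46 in KM-H2. LY6E was called higher in HDLM-2, L-540 and L-428 and lower in U-HO1, SUP-HD1 and KM-H2.

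ISG15 is a ubiquitin-like protein that HERC5 attaches to other proteins and USP18 removes. ISG15 was above background everywhere, at 10.61 in U-HO1, 10.47 in L-1236, 9.70 in KM-H2, 9.61 in L-540, 9.52 in L-428, 8.92 in HDLM-2 and 7.67 in SUP-HD1. HERC5 had one of the widest ranges, 6.79, with 9.34 in HDLM-2, 9.33 in L-540, 8.10 in U-HO1 and 6.71 in L-428, against 4.99 in L-1236, 3.15 in SUP-HD1 and 2.55 in KM-H2. These last 3 lines were below background, so the ligase was not detected there while ISG15 was. HERC6, a relative of HERC5 and its neighbour, was above background in L-428 at 7.16 and HDLM-2 at 6.71, against 4.29 in L-540, 3.73 in SUP-HD1, 3.17 in L-1236, 3.06 in U-HO1 and 3.0 in KM-H2. USP18, which also dampens the interferon receptor, was 8.36 in HDLM-2, against 7.33 in L-428, 6.99 in L-540, 6.90 in U-HO1, 6.04 in KM-H2, 4.99 in L-1236 and 3.82 in SUP-HD1. HDLM-2 was called higher at all 3 of these genes but not at ISG15.

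ISG20 is an exonuclease that degrades RNA. Its levels were 10.68 in SUP-HD1, 10.42 in U-HO1 and 9.95 in L-540, against 8.63 in L-428, 8.25 in HDLM-2, 7.66 in L-1236 and 7.29 in KM-H2. RSAD2 (viperin), which makes a chain-terminating nucleotide and is often used as a marker of interferon response, had 2.97 to 3.90 and was above background in no line. Its neighbour CMPK2, a nucleotide kinase, passed background in U-HO1 alone, at 4.74 against 4.59. These neighbours were thus undetected or near it also in HDLM-2, where 22 other members were higher.

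SAMD9 and SAMD9L restrict poxviruses and slow protein synthesis. SAMD9 was 8.32 in U-HO1, 8.01 in L-540, 7.28 in HDLM-2 and 5.90 in L-428, against 3.97 in L-1236, 3.91 in KM-H2 and 2.32 in SUP-HD1. SAMD9L was 8.31 in U-HO1, 8.05 in L-428, 7.94 in HDLM-2 and 7.36 in L-540, against 5.83 in L-1236, 4.86 in KM-H2 and 3.63 in SUP-HD1. Both genes separated the same 4 lines from the same 3, with SAMD9 below background in the low ones. At a further SAMD9L probe set U-HO1 was 4.59, beside 4.33 in L-1236, and with the mean of all probe sets the difference of U-HO1 at SAMD9L was 0.94, under the call.

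PARP9 and PARP14 belong to the family of ADP-ribosyltransferases, and PARP9 works with the ubiquitin ligase DTX3L. PARP9 was 8.99 in SUP-HD1, against 7.43 in HDLM-2, 7.04 in L-540, 6.49 in U-HO1, 6.25 in L-428, 6.04 in L-1236 and 3.0 in KM-H2. PARP14 had its highest and lowest levels in these lines as well, 8.02 in SUP-HD1 and 6.04 in KM-H2, within a range of 1.98. DTX3L, which is not a member, was 2.76 in KM-H2, against 9.29 in SUP-HD1, 8.24 in L-540, 8.08 in HDLM-2, 6.96 in L-428, 6.90 in L-1236 and 6.82 in U-HO1. At these probe sets KM-H2 lacked detectable signal for both partners, each of which was above background in the other 6 lines. A further PARP9 probe set was above background in 4 lines, with L-1236 lowest at 3.55 and KM-H2 at 3.82.

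IFI6 and IFI27 are small proteins of mitochondria and internal membranes, and XAF1 promotes apoptosis. IFI6 was 7.52 in L-540, 7.29 in U-HO1, 7.15 in HDLM-2 and 7.03 in L-428, against 5.11 in L-1236, 4.86 in KM-H2 and 3.45 in SUP-HD1. IFI27 had a range of 2.54 with its highest levels in L-1236 at 5.93 and U-HO1 at 5.38. XAF1 was 7.53 in U-HO1, 7.35 in HDLM-2 and 7.29 in L-428, against 5.38 in KM-H2, 4.65 in L-1236, 3.35 in SUP-HD1 and 2.80 in L-540. IFI6 split the lines as SAMD9 did, while XAF1 differed from it in L-540.

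TRIM22 is a ubiquitin ligase of the tripartite motif family. It was 8.33 in KM-H2 and 7.64 in SUP-HD1, against 5.19 in L-540, 5.0 in U-HO1, 2.97 in L-1236, 2.90 in HDLM-2 and 2.76 in L-428. The highest level of TRIM22 was therefore in the line with the fewest raised members, and HDLM-2, with the most, was below background. SP110, a nuclear body protein, varied little at the probe set used, at 7.40 to 7.85 in 6 lines and 8.46 in SUP-HD1. Its highest line differed between its probe sets. IFI35 was 8.54 in L-540, 8.27 in L-428, 7.75 in HDLM-2 and 7.18 in L-1236, against 6.58 in U-HO1, 5.72 in KM-H2 and 4.43 in SUP-HD1.

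IFI44 and IFI44L are neighbouring genes whose products dampen viral replication. IFI44 was 7.22 in HDLM-2, the only line above background at this gene, against 5.47 in L-1236, 4.65 in L-428, 4.37 in L-540, 3.82 in U-HO1, 3.06 in SUP-HD1 and 2.55 in KM-H2. IFI44L was 8.66 in L-1236, 6.83 in L-428 and 5.15 in HDLM-2, against 3.99 in L-540, 2.88 in SUP-HD1, 2.83 in KM-H2 and 2.36 in U-HO1. L-1236, whose members were mostly low, was here 5.22 above the median of the other lines. EPSTI1, an interferon-induced gene first described in breast epithelium next to stroma, was 9.77 in SUP-HD1, 9.65 in HDLM-2, 9.23 in U-HO1 and 8.40 in L-1236, against 7.62 in L-428, 7.24 in KM-H2 and 4.84 in L-540.

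Some members lie next to each other on a chromosome. By RefSeq order, 26 of the measured members formed 10 groups of neighbours. All genes of a group were called higher in the same line for IFI44 and IFI44L, HERC5 and HERC6 (HDLM-2), the IFIT genes (U-HO1), the IFITM genes (L-540), MX1 and MX2 (L-428 and U-HO1), PARP9 and PARP14 (SUP-HD1), and SAMD9 and SAMD9L (HDLM-2 and U-HO1). The GBP, OAS and CMPK2 groups had no such line. All genes were called lower in the same line for the IFITM genes (SUP-HD1), MX1 and MX2 (L-540), PARP9 and PARP14 (KM-H2), and SAMD9 and SAMD9L (SUP-HD1, L-1236 and KM-H2). The difference of KM-H2 at PARP14 was -1.0, which is the edge of the call. Some neighbours are also similar in sequence, and the part of shared hybridisation was not tested. No share of shared calls was taken over members that are not neighbours, so nothing particular to neighbours is read from this.

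**Figure D4:**
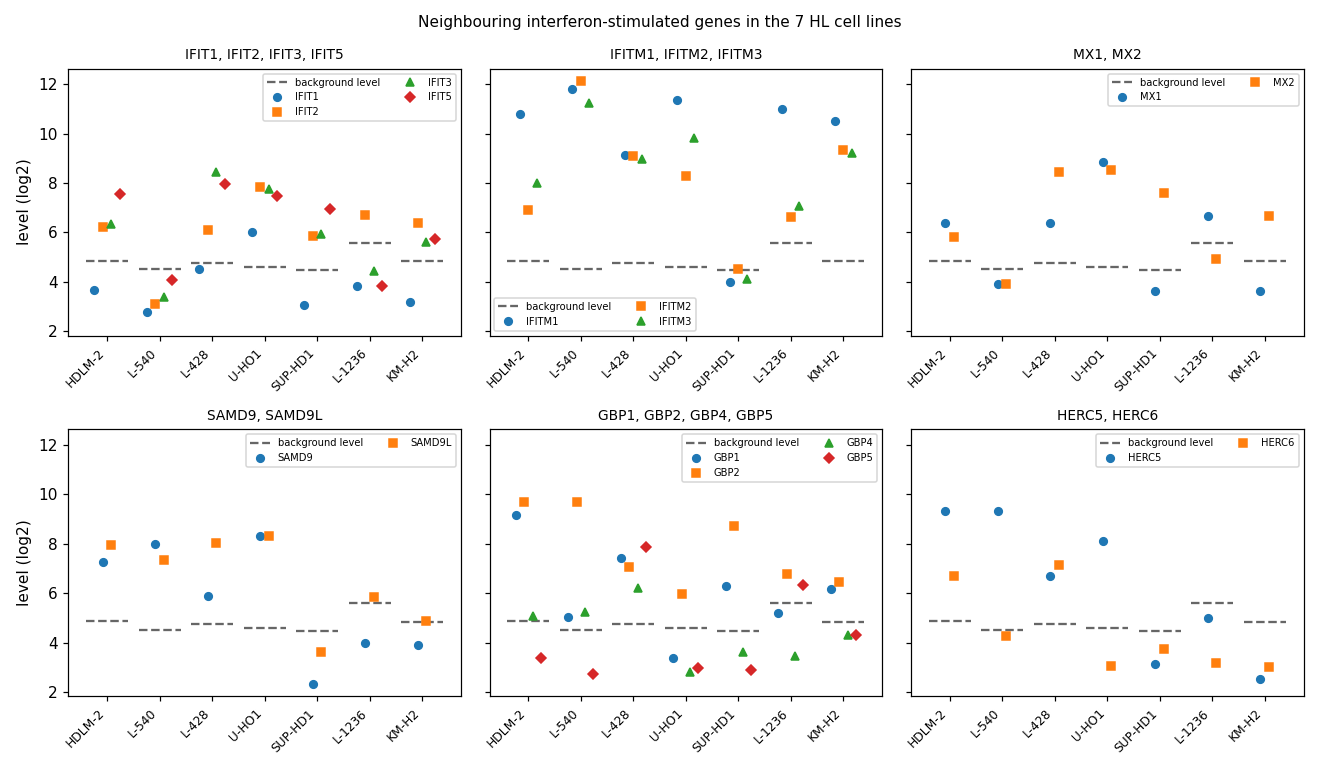
Log2 levels of 6 groups of neighbouring interferon-stimulated genes in the 7 HL cell lines (1 array each), with a dashed line at the background level of each array. Levels are to be compared between lines and not between genes. At the probe sets drawn, the IFITM genes are at or under background in SUP-HD1, the IFIT genes in L-540, and SAMD9 and HERC5 in SUP-HD1, L-1236 and KM-H2.

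The genes upstream of the response were also read. Of 18 measured interferon genes, 3 were above background in any line. IFNG lay at 6.02 in L-540, IFNL2 at 5.55 in HDLM-2, and IFNA17 at 5.03 in L-428 and 4.81 in U-HO1. IFNA17 varied by 1.04 in all and was 4.80 in KM-H2, under that array's background of 4.84, so the side of background on which a line fell separates nearly equal levels. Some interferon genes are near-identical copies.

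The 6 receptor genes were above background in every line other than L-1236, where IFNAR1, IFNAR2 and IFNLR1 fell under its level of 5.59. IFNAR1 of the type I receptor was highest in U-HO1 at 7.50, against 5.48 to 6.41 elsewhere, and IFNAR2 was 8.04 in KM-H2, against 5.53 in L-1236 and 6.25 to 7.38 in the other lines. The interferon gamma receptor subunits ranged over 6.41 to 9.16 for IFNGR1 and 8.08 to 10.63 for IFNGR2, with HDLM-2 the highest line for IFNGR2. IFNLR1 and IL10RB, which form the type III receptor, lay at 4.71 to 6.08 and 6.19 to 8.29. KM-H2 had 2 of the 6 receptor genes higher (33.3%) and none lower, and U-HO1 had 2 higher (33.3%) and 1 lower (16.7%). Of all genes, 9.21% were higher in KM-H2 and 11.0% in U-HO1, where 7.13% were lower. With a list of 6 genes, nothing is read from these shares.

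Of the relay behind the receptors, 4 of 6 listed genes were measured and the others were not analysed here. JAK1 and TYK2 varied by less than 2, at 8.60 to 10.23 and 7.63 to 8.98. JAK2 was 9.44 in HDLM-2, 8.46 in L-1236 and 8.37 in SUP-HD1, against 6.89 in L-540, 6.85 in L-428, 6.13 in KM-H2 and 4.91 in U-HO1. IRF9, which joins the STAT factors at the response element, was 8.43 in HDLM-2 and 8.26 in SUP-HD1, against 7.67 in L-540, 7.61 in L-428, 7.18 in U-HO1, 6.52 in L-1236 and 6.29 in KM-H2. JAK2 was called higher in HDLM-2, L-1236 and SUP-HD1 and lower in KM-H2 and U-HO1. IRF9 was called higher in HDLM-2 and lower in KM-H2 and L-1236. The part of these genes in the levels of the members was not tested. Among the interferon regulatory factors, IRF7 was highest in L-540 at 7.60 and HDLM-2 at 6.95, against 4.72 to 6.02 in the other lines, IRF8 in SUP-HD1 at 10.03 and L-428 at 9.40, IRF5 in L-428 at 9.76 and IRF2 in HDLM-2 at 8.31.

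Inhibitors and sensors of the pathway differed between the lines as well. SOCS1, which blocks JAK kinases, was 2.87 in U-HO1, against 7.52 to 10.12 elsewhere. SOCS3 was 10.63 in L-540, 9.59 in SUP-HD1, 9.32 in HDLM-2 and 8.45 in U-HO1, against 5.52 in L-428, 5.11 in L-1236 and 4.38 in KM-H2. The phosphatase PTPN2 and the corepressor TRIM24 were above background in all lines, with ranges of 1.53 and 2.76. Of the sensors, STING1, the adaptor for cytosolic DNA, was 3.15 in SUP-HD1, against 6.69 to 10.23 elsewhere, with HDLM-2 the highest. AIM2, another DNA sensor, was 10.02 in SUP-HD1 and 9.65 in HDLM-2, against 3.42 in U-HO1 and 4.58 to 8.06 in the other lines. TLR3 was above background in HDLM-2 alone, at 6.26, and TLR7 in KM-H2 alone, at 5.99.

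A second list of 43 interferon-stimulated genes that are not members, 40 of them measured, gave a different order. HDLM-2 had 10 of the 40 higher and 3 lower, L-540 10 and 5, L-428 4 and 1, U-HO1 5 and 7, SUP-HD1 10 and 4, L-1236 3 and 11, and KM-H2 2 and 7. Against the shares of genes with a mean above background given for each line, the 10% higher in L-428 and 12.5% in U-HO1 were near or under 9.6% and 14.6%, and the 27.5% lower in L-1236 were under 31.7%. The 25% higher in HDLM-2, L-540 and SUP-HD1 compare with 12.3%, 10.5% and 11.7%. SUP-HD1, with 17 lower members, was thus not low on this list, where its median was 0.12 above the other lines, and the median of HDLM-2 was 0.13. CXCL10, a chemokine for T-cells, was 11.55 in SUP-HD1, 10.90 in L-1236, 10.01 in KM-H2 and 9.37 in U-HO1, against 6.31 in L-428, 4.15 in L-540 and 3.82 in HDLM-2. It was therefore highest in the 3 lines with more lower than higher members. PARP12, by contrast, was 2.88 in SUP-HD1, against 6.43 to 8.29 elsewhere, and LAMP3, a lysosomal protein of dendritic cells, was 9.15 in HDLM-2, against 3.03 to 6.88.

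Antigen presentation genes induced by interferon gamma differed little as a list. Of 12 measured, 11 were above background in all lines, and the median difference from the other lines was between -0.24 and 0.23. HLA-E ranged over 3.07, TAPBP over 2.18, NLRC5, an activator of class I genes, over 2.41 and CIITA, its class II counterpart, over 3.26. For 10 measured genes that every cell uses, the median was -0.57 in L-1236 and -0.07 to 0.16 in the other lines. In SUP-HD1 and KM-H2 the member medians were -0.97 and -0.57, beside -0.07 and 0.16 for these genes, while L-1236 had -0.67 beside -0.57.

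**Figure D5:**
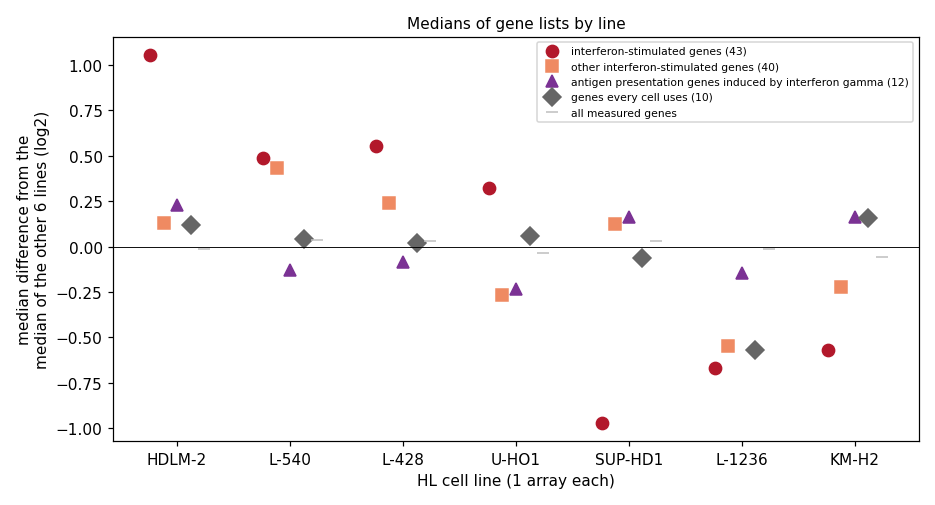
Median over each gene list of the difference in log2 level from the median of the other 6 lines, by HL cell line (1 array each), for the 43 interferon-stimulated genes, 40 other interferon-stimulated genes, 12 antigen presentation genes, 10 genes every cell uses and all measured genes. The medians of the members spread between 1.06 in HDLM-2 and -0.97 in SUP-HD1, while those of all genes stay near 0.

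The order of the lines depended on the probe set for part of the members. Of 20 members with at least 2 probe sets above background, 11 had the same highest line and 12 the same lowest line at all of them. The calls for 18 members rest on a single probe set each.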

How the data were processed

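Total RNA of 7 HL cell lines was hybridised to HG U133 Plus 2.0 arrays, 1 array per line. The deposited log2 values, given to 2 decimals, were made by the authors with RMA background correction and quantile normalization. RMA, limma and affy are named in the submitters' processing notes, with versions not given in the sources consulted. The methods also describe ratios to the sample mean, but the deposited values (1.99 to 14.17) are levels per probe set, not ratios.

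Of 54675 probe sets, 41097 carry a single gene symbol, 1801 several and 11777 none, and only those with a single symbol were used. Symbols were updated for 41043 through the RefSeq table of GRCh38.p14. Each of 19775 genes was read from its probe set of highest mean level. Lower calls also required the median of the other lines to exceed their median background. Neighbours were members on the same chromosome with a gap of at most 200000 bases. No test was possible with 1 array per line, and this number limits the precision.

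Every measured member is named, all 7 values are given where the range is at least 3, and up to 4 genes of each related list are named by range. Other named genes were chosen after their values were seen. The members and lists were chosen with earlier results of these data known. Alternatives changed the probe set, normalization, background, fold, filter and lines compared. The calling rule was also run on simulated levels with known shifts, which checks the rule and says nothing about these lines. Python 3.11.15, pandas 2.3.3, numpy 2.4.6 and matplotlib 3.10.9 were used.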

Additional observations from a re-analysis of the deposited data

Results flagged for a closer look

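Of 53 genes examined (the 43 members and 10 receptor or relay genes), 5 had a line whose gap to the next line exceeded, as a share of the range over the 7 lines, Dixon's critical value. Chance flags about 1 in 20 groups. IFITM1 was lowest in SUP-HD1, at 4.01 against 9.14 in L-428, a gap of 5.13. IFI16 was lowest in U-HO1, at 2.58 against 7.36 in L-1236, a gap of 4.78. For EIF2AK2, SUP-HD1 was lowest with 3.92 against 7.51 in L-540, which leaves a gap of 3.59. IFIT2 had its lowest level in L-540, 3.11 against 5.84 in SUP-HD1, and this gap was 2.73, but at the second IFIT2 probe set L-540 was above background at 5.03 and U-HO1 was lowest at 4.59. SP110 was highest in SUP-HD1, at 8.46 against 7.85 in L-1236, and the gap of 0.61 is close to the spread of 0.44 between probe sets of a gene. Its highest line also depended on which of its 5 probe sets was read. HDLM-2 was highest at some, with 7.37 against 6.82 in SUP-HD1 and 7.99 against 7.80, and SUP-HD1 at the remaining ones.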

How the results depend on the processing

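No paired analysis was possible because a line has 1 array and the labels give no replicate numbers shared between lines. Over all alternatives, 218 of 252 counts of called members stayed within 1.5 times the value reported, and 34 moved. At a difference of 2 in place of 1, higher members numbered 10 in HDLM-2, 8 in L-428 and 7 each in L-540 and U-HO1. SUP-HD1 had 3, L-1236 had 2 and KM-H2 had 1. Lower members then numbered 13 in SUP-HD1, 8 each in L-1236 and KM-H2, and 7 in L-540. U-HO1 had 2 lower members, and HDLM-2 and L-428 had 1 each. Shares over all genes were not taken at this difference. Set against the mean of the other lines, 4 members were higher in KM-H2, and 2 were lower in HDLM-2 and 1 in L-428. Without probe sets ending in _x_at or _s_at, members that have no other probe set drop out. In that setting 10 members were higher in L-540 and 1 in KM-H2, and 2 were lower in HDLM-2 and 1 in L-428. With the probe set of largest variance, 4 were higher in KM-H2 and 5 lower in L-428. L-1236 had 1 higher member when genes with a low mean were left out and 7 after quantile normalization again. U-HO1 had 8 lower members with the 90th percentile as background. Dropping both L-1236 and U-HO1, which was chosen after seeing the data, gave 5 higher members in SUP-HD1 and 9 lower in U-HO1. With each other line left out in turn, the lower members numbered 2 to 5 in HDLM-2, 3 to 8 in L-428 and 4 to 10 in U-HO1. Medians of the members kept their sign in 102 of 105 values. The 3 exceptions were all in U-HO1, with -0.09 without L-1236 (alone or with U-HO1 itself) and -0.057 with values below background raised to it. Of 592 differences of a member's highest line from the other lines, 463 moved by less than the pooled spread between probe sets. That limit is narrower than the spread of the L-1236 and U-HO1 arrays themselves. A further 126 moved by more, and 3 reversed. CMPK2 in U-HO1 became -0.057 with values below background raised to it, and OAS1 in SUP-HD1 became -0.55 with the mean of all probe sets and -2.29 with the probe set of largest variance. Signal over background limits the low genes, most of all in L-1236.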
